A study of Mus musculus with 7 samples.

Results

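The cycling cells described here were 284 of the 10666 cells in the bone marrow and spleen libraries of the healthy mice, in a series of 21763 cells. The cells were chosen by their measured counts. A cell was taken when it held at least 3 unique molecular identifiers (UMIs, each 1 counted transcript molecule) over the 6 cell cycle genes Top2a, Mki67, Nusap1, Birc5, Cdk1 and Hmmr, at least 1% of its UMIs from the granule genes Camp, Ngp, Ltf and Chil3, and fewer than 3 UMIs over the lymphoid genes Cd79a, Cd79b, Cd3e and Nkg7. They were set against the 2270 other cells of the same libraries in which Camp and Ngp made up at least 3% of UMIs, named the other granule-gene cells here. Live cells positive for CD11b and Ly6G had been sorted from untreated male C57BL/6J mice, and each run gave 1 library per tissue. By the study's methods each library pooled 3 mice, marrow and spleen of a run were taken from the same animals, and the mice were 6 weeks old in run 1 and 8 weeks old in run 2, so that age, run and software version cannot be told apart. Spleen and marrow of run 2 shared 27 cell barcodes, those of run 1 shared 0, and no barcode was that of a cycling cell in both libraries.

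Neutrophils arise in the bone marrow from myeloblasts and promyelocytes, which make primary granules, and then from myelocytes, which still divide and fill secondary granules with proteins such as lactoferrin (Ltf), cathelicidin (Camp) and neutrophilic granule protein (Ngp). Division ends at the metamyelocyte, and later cells make gelatinase granules before they leave for the blood. Ly6G is low on the earliest of these cells, so that a sort on Ly6G samples them in part.

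Marrow of run 1 held 67 cycling cells, marrow of run 2 held 183, spleen of run 1 held 18 and spleen of run 2 held 16. They made up 5.27% (95% exact binomial interval 4.11 to 6.65) and 4.79% (4.13 to 5.51) of the deposited cells of marrow, and 1.48% (0.877 to 2.32) and 0.368% (0.210 to 0.596) of those of spleen, in runs 1 and 2. The intervals cover counting error only. Marrow was higher than spleen in both runs, by 3.57-fold and 13.02-fold, and with 2 libraries per tissue no test was run. Cells were also thinned to 1000 UMIs each, with 1 cycle UMI as the requirement. The shares were then 5.11% and 4.68% in marrow and 2.84% and 0.597% in spleen. This left out 410 and 1841 shallower spleen cells and 0 marrow cells. Of the 65 and 179 marrow cells so chosen, 46 and 160 were cycling cells by the main rule. Of the 23 and 15 spleen cells, 16 and 14 were. The order of the tissues depended on what the cells were counted against. Of cells with at least 1% of UMIs from S100a8 and S100a9, the cycling cells were 5.57% and 5.36% in marrow and 1.54% and 0.768% in spleen. Of the granule-gene cells alone they were 9.82% and 13.7% in marrow but 3.77% and 25.8% in spleen, so that the order of the tissues was the opposite in run 2, where the spleen library held only 46 other granule-gene cells. Blood, which lies outside the rule, held 7 such cells of 1588 (0.441%) in run 1 and 3 of 4653 (0.0645%) in run 2. Late neutrophils should lack cycle transcripts. Of them, 0.268% and 0% in marrow and 0.156% and 0% in spleen held at least 3 cycle UMIs. In run 2 these were 0 of 1552 and 0 of 2012 cells, which allow shares of up to 0.193% and 0.149%. Median depths of late neutrophils were 1674, 1477, 929 and 761 UMIs. After thinning to 1000 UMIs, 1.61% and 1.80% of them in marrow and 0.8% and 1.54% in spleen held at least 1 cycle UMI.

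**Figure D1:**
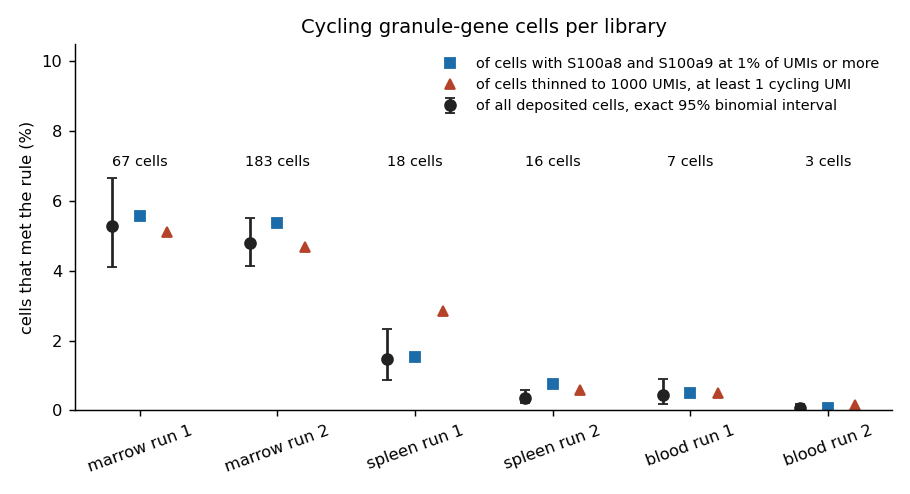
Percent of cells that met the rule in each library (y axis), with the number of such cells above each library. Black circles are shares of all deposited cells with exact binomial intervals, blue squares shares of cells rich in S100a8 and S100a9, and red triangles shares after thinning to 1000 UMIs; marrow lies between 4.68% and 5.57% by each measure and the other libraries between 0.0645% and 2.84%.

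The rule chose these cells, and the levels of its genes are therefore a description. Levels are counts per 1000000 UMIs of the summed cells (CPM), used here to compare a gene between cells and not genes with each other. Top2a, the topoisomerase that untangles replicated DNA, stood at 317 and 412 CPM in the cycling cells of marrow and 371 and 570 in those of spleen, and at 18.5, 12.4, 1.1 and 0 CPM in the other granule-gene cells. Top2a had a UMI in 82.1%, 91.8%, 83.3% and 100% of cycling cells, and Mki67, the Ki-67 antigen gene, in 77.6%, 79.2%, 83.3% and 68.8% (marrow of runs 1 and 2, then spleen of runs 1 and 2, an order kept throughout). Nusap1, a spindle protein gene, was seen in 71.6%, 89.6%, 77.8% and 100%. Chil3, a chitinase-like protein of granulocyte precursors, reached 9466, 11269, 10160 and 11503 CPM against 3714, 3502, 3843 and 2807 CPM. Of the individual cycling cells, 67 of 67, 183 of 183, 17 of 18 and 16 of 16 lay above the median Chil3 level of the other granule-gene cells of their library. Camp stood at 77374, 70167, 83029 and 69999 CPM against 56528, 39472, 55770 and 35613 CPM, and Ltf at 8274, 8926, 7294 and 8645 CPM against 8541, 9631, 9793 and 10369 CPM. Top2a, Mki67, Nusap1 and Chil3, the markers that name these cells, were thus seen in each library.

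The thresholds of the rule cut few cells closely. Only 1, 3, 0 and 0 cycling cells stood at the minimum of 3 cycle UMIs, and 6, 5, 2 and 0 cells were left out at 2 UMIs. The median was 14, 16, 13.5 and 15 cycle UMIs per cell. The lowest granule share of a cycling cell was 5.00%, 7.39%, 10.7% and 9.41% of UMIs, and 11, 6, 3 and 2 cells with 3 cycle UMIs had granule shares under 1%, the highest of them 0.515%. The lymphoid clause left out 8 and 9 cells of the marrow libraries, of which 8 and 8 carried Nkg7 in the main. Those cells remained among the other granule-gene cells of marrow and held up to 51 and 38 cycle UMIs each. Together they held 480 and 512 UMIs of the primary granule genes Mpo, Elane, Prtn3 and Ctsg. Whether they are lymphoid cells was not tested.

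Cycling cells were large in transcripts. Their median was 9448, 7670, 6478 and 6873 UMIs against 3640, 3145, 3833 and 2753 in the other granule-gene cells, higher in 4 of 4 libraries (exact sign-flip test over libraries, two-sided p = 0.125, the smallest that 4 libraries allow). The rule asks for a minimum number of cycle UMIs, and its part in that difference was not tested. At an equal depth of 1000 UMIs per cell they showed 352, 374, 354 and 380 genes against 307, 325, 294 and 338, a difference of 49.1 ± 7.73 genes (SD, n = 4 libraries, exact p = 0.125). An upper limit on genes per cell at the 99th percentile of the healthy libraries would have removed 26, 29, 4 and 0 of the cycling cells. No doublet caller was run, and the part of doublets in these depths was not tested.

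Counts were summed per library and class and tested with edgeR's quasi-likelihood test, with the library as a block, over 4699 genes. At an FDR of 0.05, 2295 genes were called (48.8%), 1287 higher (27.4%) and 1008 lower (21.5%) in cycling cells. This is the contrast by which the cells were chosen, and nothing is read from those shares. The 14 genes of the rule were not among the tested genes. The number of calls also moved with the depth of the comparison cells. Comparison cells of similar depth were other granule-gene cells with at least the 25th percentile of UMIs of the cycling cells of their library. No upper limit was set. With under 3 lymphoid UMIs these were 27 and 7 marrow cells and 180 spleen cells of run 1, with none in spleen of run 2. Against them, 860 of 2936 genes were called, 522 higher and 338 lower. Of these, 829 were among the 2295, with the same direction. Where the comparison cells were of similar depth but could carry 3 or more lymphoid UMIs, 0 of 3370 genes were called by edgeR and 442 had an unadjusted p under 0.05, and 8 of the 37 and 9 of the 16 marrow cells in that comparison held 3 or more cycle UMIs, being those left out by the lymphoid clause.

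Genes of the cell cycle lists followed the choice of the cells, and their counts are given as a description. Of the 67 genes of the G2 and M phase list, 50 were listed in both run 1 tables and tested, and 49 were higher in cycling cells (median log2 4.36, against 0.08 over all genes tested). Of 42 S phase genes 25 were listed there, 18 were tested and 17 were higher (median log2 2.61). Ube2c, the ubiquitin-conjugating enzyme of the anaphase-promoting complex, stood at 844, 942, 860 and 900 CPM in cycling cells and at 34.6, 30.4, 3.30 and 14.6 CPM in the other cells. Cdc20, an activator of the same complex, stood at 216, 337, 245 and 266 CPM against 8.25, 11.1, 1.10 and 0 CPM. Rrm2, the ribonucleotide reductase subunit that makes deoxynucleotides, stood at 312, 277, 395 and 239 CPM against 28.3, 10.6, 2.75 and 0 CPM. For each of the 3 the lowest cycling library lay above the highest library of the other cells, which was not counted over all genes tested.

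The promoters of genes that peak in G2 and M phase are known for CCAAT boxes, bound by NF-Y, and for a cell cycle homology region, an element of the letters TTTGAA or TTTAAA. Both were searched on both strands from 250 bases before to 50 after the start in RefSeq promoters (GRCm38.p6). The promoters of 4 such genes of the list or rule are printed 5′ to 3′ over the 130 bases before the start, with CCAAT (or ATTGG, its other strand) and TTTGAA (or TTCAAA) or TTTAAA in capitals:
Cdk1 (chr10:69352913-69353042, minus strand): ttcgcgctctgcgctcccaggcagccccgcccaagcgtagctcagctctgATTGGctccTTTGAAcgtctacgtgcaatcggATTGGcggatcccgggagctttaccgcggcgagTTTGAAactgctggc
Ccnb1 (chr13:100786487-100786616, minus strand): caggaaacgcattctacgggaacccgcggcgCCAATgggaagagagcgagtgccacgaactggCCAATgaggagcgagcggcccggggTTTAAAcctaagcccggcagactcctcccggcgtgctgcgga
Cdc20 (chr4:118437344-118437473, minus strand): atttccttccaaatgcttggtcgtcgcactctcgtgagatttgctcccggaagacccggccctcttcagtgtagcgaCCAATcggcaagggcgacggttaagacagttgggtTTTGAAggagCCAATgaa
Ube2c (chr2:164769799-164769928, plus strand): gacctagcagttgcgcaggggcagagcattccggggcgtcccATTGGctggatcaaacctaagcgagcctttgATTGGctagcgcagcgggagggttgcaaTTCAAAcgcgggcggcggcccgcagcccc
Each of the 4 windows held both kinds of element. Of the G2 and M phase genes with a promoter (54 of 67), 75.9% held CCAAT, 79.6% held TTTGAA or TTTAAA and 64.8% held both, against 41.1%, 30.6% and 12.2% of all 27025 genes with a promoter. S phase genes (31 of 42) held them at 71.0%, 25.8% and 19.4%. Genes called higher in cycling cells held both at 13.7%, genes called lower at 9.45% and genes not called at 8.11%. A match of letters is not a bound site.

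Outside the phase lists, regulators of the cycle were counted. Of 27 regulators 16 were tested, 9 were higher and 2 lower, beside 27.4% and 21.5% of all genes tested. Cdkn2c, the CDK4 and CDK6 inhibitor p18, stood at 114, 111, 150 and 165 CPM in cycling cells and 5.11, 4.64, 2.75 and 0 CPM in the others (log2 4.64 ± 0.24 SE, edgeR FDR 3.67e-18). Its relative Cdkn2d was higher by a smaller step, 436, 463, 458 and 515 CPM against 250, 303, 238 and 343 CPM (log2 0.61 ± 0.11, FDR 1.45e-05). Btg1 and Btg2, known for slowing proliferation, were lower, Btg2 at 51.2, 26.5, 47.4 and 45.9 CPM against 104, 130, 101 and 131 CPM (log2 -1.79 ± 0.20, FDR 2.61e-09). Against comparison cells of similar depth with under 3 lymphoid UMIs Btg2 stayed called (log2 -1.03) and Btg1 did not (log2 -0.38, FDR 0.354). Ccnd3, a D-type cyclin, was at 527, 456, 497 and 478 CPM against 452, 430, 448 and 503 CPM and was not called (FDR 0.986).

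Of 19 tested of 20 chromatin and tubulin genes 18 were higher (median log2 2.96), beside 27.4% of all genes tested, and the levels of some of them differed between the runs. Tuba1b, an alpha-tubulin, was at 1001, 962, 1121 and 1011 CPM against 71.5, 33.8, 6.04 and 21.9 CPM. Hmgn2, a nucleosome-binding protein, was at 331 and 4323 CPM in marrow of runs 1 and 2 and at 458 and 4759 CPM in spleen, and its other cells stood at 80.2, 1080, 70.8 and 1043 CPM, so that the fold was alike while the level was not (log2 2.05 ± 0.11, FDR 3.67e-18). Stmn1 and Ptma showed the same split between runs. Levels of such genes are compared here only within a run. Of 13 replication-dependent histone genes 5 were tested and 1 was higher, a share not above that of all genes, namely Hist1h2ae (28.8, 27.2, 31.6 and 36.8 CPM against 4.32, 1.80, 2.20 and 0 CPM). Their transcripts largely lack the poly(A) tail that the library preparation captures. Hist1h2al, a histone gene outside that list, stood at 475, 2.72, 1153 and 0 CPM in cycling cells. It was called higher, also against comparison cells of similar depth with under 3 lymphoid UMIs (log2 4.28, edgeR FDR 4.06e-69).

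**Figure D2:**
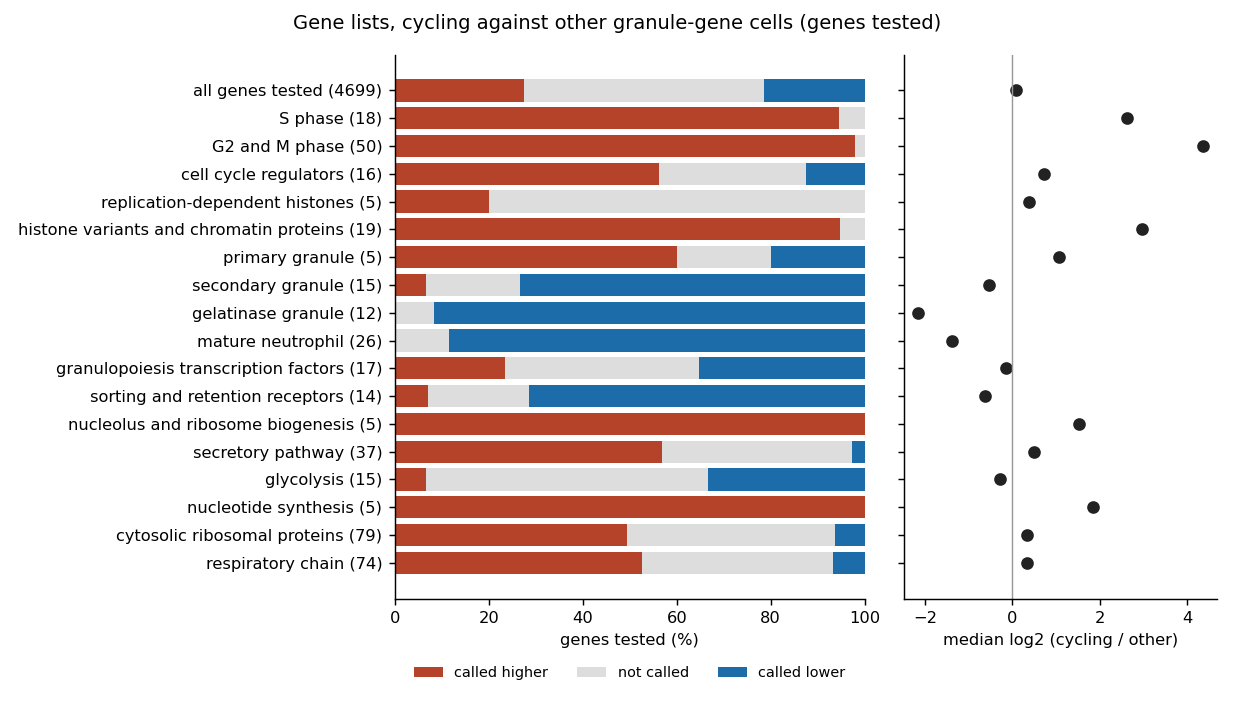
Left, percent of the tested genes of each list (number in brackets) called higher, not called or called lower in cycling against other granule-gene cells at an FDR of 0.05; right, the median log2 fold change of the list. The G2 and M phase list (49 of 50 higher) and the gelatinase granule list (11 of 12 lower) lie at opposite ends, at medians of 4.36 and -2.15.

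Granule genes were counted by the stage at which they are made, and differences between these lists were not tested. Of the primary granule list, 5 of 11 genes were tested, and among them Ms4a3 and Fcnb were higher and Cd63 lower. Over all genes tested, 27.4% were higher and 21.5% lower. Fcnb, the ficolin B of immature granulocytes, stood at 564, 462, 371 and 404 CPM in cycling cells and 193, 112, 70.3 and 14.6 CPM in the others (log2 1.89 ± 0.15, FDR 3.71e-13). Every sum of cycling cells was above every sum of the other cells for Fcnb, which was not counted over all genes tested. Ms4a3, a marker of granulocyte and monocyte progenitors, stood at 126, 103, 23.7 and 27.6 CPM against 34.2, 24.5, 4.39 and 0 CPM (log2 1.92 ± 0.19, FDR 8.63e-11), and here the spleen cells lay below those of marrow. Against comparison cells of similar depth with under 3 lymphoid UMIs both stayed called (log2 1.14 and 2.24). With 3 or more lymphoid UMIs allowed in those cells, which lets in marrow cells left out by the lymphoid clause, the 2 fold changes were negative and not called.

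The defining enzymes of primary granules were low in the chosen cells, and the rule bears on this. Mpo, Elane, Prtn3 and Ctsg together gave 46 of the 7887 UMIs of these genes in marrow of run 1 and 76 of 2463 in marrow of run 2, and a cycling cell held at most 8 and 17. In the same libraries 13 and 9 cells with granule shares under 1% held 91.2% and 69.9% of those UMIs. Of these cells, 11 and 5 had at least 3 cycle UMIs, which the rule left out for their low granule share. The other granule-gene cells held 569 and 549 of these UMIs, of which 480 and 512 lay in the 8 and 9 marrow cells that only the lymphoid clause kept out.

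Secondary granule genes outside the rule were mostly lower in cycling cells, 11 of 15 tested, with 1 higher (median log2 -0.53), beside 21.5% lower and 27.4% higher over all genes tested. Lcn2, the siderophore-binding lipocalin, stood at 8765, 7526, 9078 and 6973 CPM against 9441, 8557, 10862 and 9567 CPM (log2 -0.38 ± 0.09, FDR 5.86e-04). Lyz2, lysozyme, stood at 16626, 12089, 15125 and 10115 CPM against 22296, 16659, 23955 and 16195 CPM (log2 -0.68 ± 0.09, FDR 3.99e-08). Orm1, an acute phase glycoprotein, was the gene called higher, at 199, 179, 174 and 165 CPM against 104, 65.5, 82.9 and 51.0 CPM, but against cells of similar depth with under 3 lymphoid UMIs its fold change was near 0 (log2 -0.06, FDR 0.877).

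Of the granule lists the gelatinase list had the lowest median, with 11 of 12 tested genes lower, beside 21.5% of all genes tested, and a median log2 of -2.15. Mmp8, the neutrophil collagenase, stood at 264, 112, 63.2 and 9.19 CPM in cycling cells against 1994, 2684, 1795 and 2800 CPM (log2 -4.20 ± 0.22, FDR 2.99e-18). Mmp9, gelatinase B, stood at 277, 190, 261 and 211 CPM against 1138, 1314, 1040 and 1436 CPM (log2 -2.52 ± 0.13, FDR 1.40e-18). Retnlg, a resistin-like secreted protein, stood at 3351, 1416, 1026 and 331 CPM against 13803, 19354, 14924 and 19987 CPM (log2 -3.80 ± 0.25, FDR 3.76e-15). The sums of the libraries did not overlap between the classes for any of the 3, which was not counted over all genes tested. Single cells did overlap, with 3 of 67 and 1 of 183 cycling cells of marrow above the median of the other cells for Retnlg. For Mmp9 it was 5 of 67 in marrow and 2 of 18 in spleen of run 1. All 3 stayed called against cells of similar depth with under 3 lymphoid UMIs, with smaller steps (log2 -2.80, -1.61 and -2.08).

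Genes of mature neutrophils were lower in 23 of 26 tested and higher in 0 (median log2 -1.39), beside 21.5% and 27.4% of all genes tested. Cxcr2, the receptor that draws neutrophils out of the marrow, stood at 27.2, 36.0, 23.7 and 45.9 CPM against 113, 243, 130 and 299 CPM (log2 -2.66 ± 0.18, FDR 8.08e-15). Csf3r, the G-CSF receptor, stood at 44.8, 44.9, 39.5 and 27.6 CPM against 84.1, 105, 74.7 and 131 CPM (log2 -1.27 ± 0.18, FDR 3.84e-07). S100a6, named by its fold change and not by a list, fell from 3531, 3401, 2752 and 2902 CPM to 937, 476, 426 and 193 CPM (log2 -2.76 ± 0.15, FDR 7.52e-18). Thbs1 (log2 -3.75) and Tpm4 (log2 -3.46) were also among the 10 called genes with the largest falls at 100 CPM or more. Against comparison cells of similar depth with under 3 lymphoid UMIs, log2 was -1.74 for Cxcr2, -1.90 for S100a6, -2.54 for Thbs1 and -1.98 for Tpm4, all still called. Of 14 tested genes for sorting and retention, 10 were lower and only Itgb1 was higher (median log2 -0.63). Ly6g, which encodes the sorted antigen, was at 820, 591, 742 and 542 CPM against 1381, 1122, 1615 and 1130 CPM (log2 -1.06 ± 0.10, FDR 4.55e-11), and Cxcr4, the receptor that holds cells in the marrow, at 89.7, 54.4, 63.2 and 64.3 CPM against 148, 84.5, 119 and 51.0 CPM (log2 -0.76 ± 0.16, FDR 1.56e-04). In spleen of run 2 Cxcr4 was not lower, and against comparison cells of similar depth with under 3 lymphoid UMIs it was not called (log2 -0.46, FDR 0.277).

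**Figure D3:**
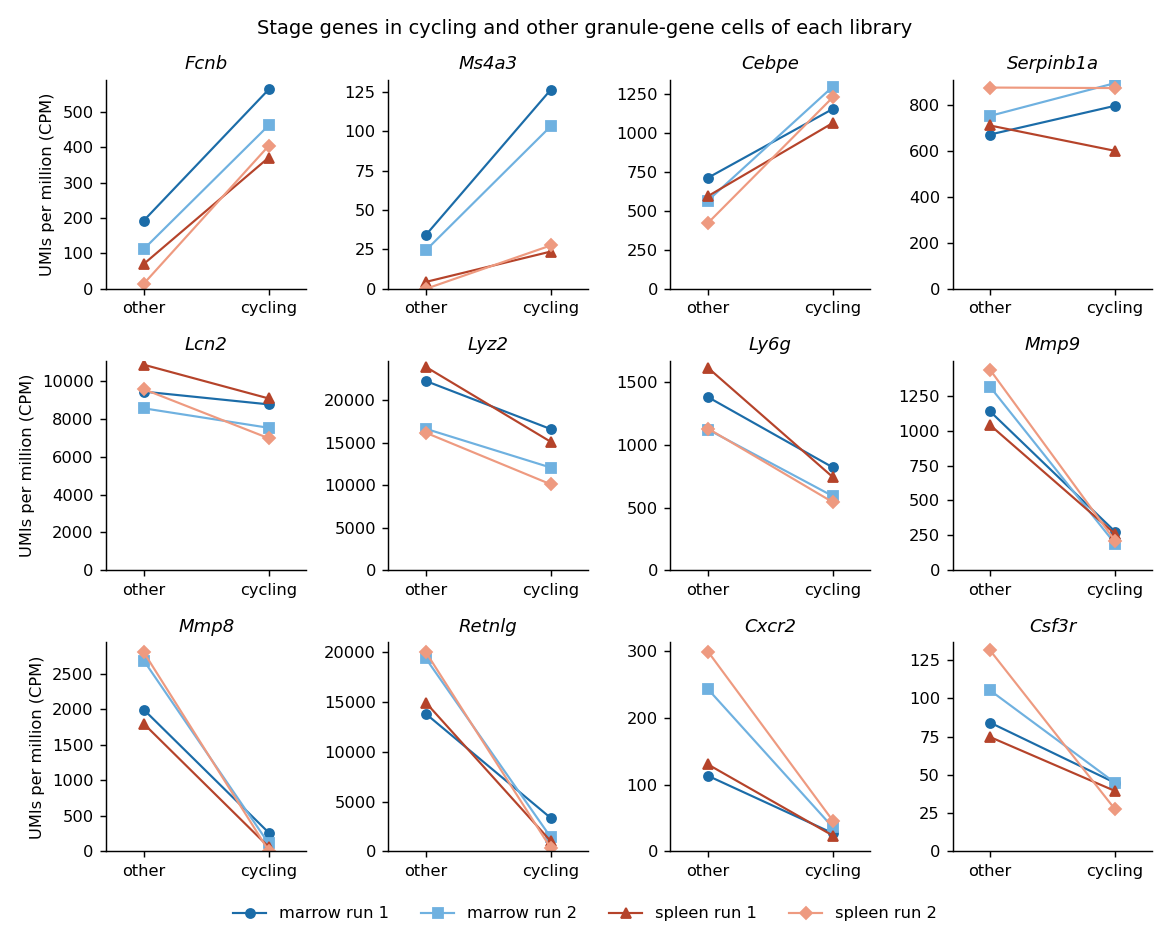
CPM (y axes, from 0) of 12 stage genes in the other granule-gene cells and the cycling cells of each library, 1 line per library. Fcnb, Ms4a3 and Cebpe rise to the cycling cells in all 4 libraries, Lcn2 and Lyz2 fall by a small step, Mmp9, Mmp8, Retnlg and Cxcr2 fall to a fraction of their level, and Serpinb1a has no common direction.

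Of 17 tested transcription factors of granulopoiesis, 4 were higher and 6 lower, beside 27.4% and 21.5% of all genes tested. Cebpe (chr14:54710363-54712174 in RefSeq, GRCm38.p6), required for secondary granules, stood at 1156, 1299, 1066 and 1231 CPM against 713, 567, 595 and 423 CPM (log2 0.89 ± 0.11, FDR 1.41e-08). Its level exceeded the median of the other granule-gene cells in 58 of 67, 178 of 183, 17 of 18 and 16 of 16 cycling cells. Id1 and Id2, inhibitors of helix-loop-helix factors, were higher, Id1 at 128, 98.5, 142 and 110 CPM against 36.2, 36.6, 35.1 and 21.9 CPM (log2 1.57 ± 0.17, FDR 6.18e-10). Spi1, which encodes PU.1, was lower, at 519, 415, 442 and 542 CPM against 608, 614, 630 and 839 CPM (log2 -0.58 ± 0.11, FDR 2.19e-05). Gfi1, a repressor needed for neutrophil fate, was not listed in spleen of run 1 and stood at 33.6, 22.4 and 45.9 CPM against 11.0, 4.12 and 0 CPM in the other libraries, with no test. Cebpb, a factor of emergency granulopoiesis, was not called (log2 0.10 ± 0.19, FDR 0.684), and its direction differed between runs, from 275 and 284 against 144 and 97.8 CPM in run 1 to 258 and 340 against 387 and 467 CPM in run 2. Against comparison cells of similar depth with under 3 lymphoid UMIs it was called higher (log2 1.07, FDR 1.04e-05).

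Growth and biosynthesis were counted by list, beside 27.4% higher and 21.5% lower over all genes tested. All 5 tested of 20 nucleolar genes and all 5 tested of 20 nucleotide synthesis genes were called higher, among them Npm1, nucleophosmin, at 52.8, 70.7, 47.4 and 18.4 CPM against 31.4, 26.8, 17.0 and 29.2 CPM (log2 1.02 ± 0.21, FDR 1.31e-04), with spleen of run 2 the exception in direction. Of the 20 genes of each list, 13 and 10 were listed in both run 1 tables and 5 of each list passed the low-count filter, so that most of both lists had no test. Of 37 secretory pathway genes tested 21 were higher and 1 lower (median log2 0.49). Hsp90b1, the chaperone of the endoplasmic reticulum, was at 78.5, 113, 86.8 and 138 CPM against 43.6, 39.7, 36.8 and 36.5 CPM (log2 1.17 ± 0.17, FDR 5.13e-07), and was not called against cells of similar depth with under 3 lymphoid UMIs (FDR 0.752). Ribosomal protein genes were higher in 39 of 79 and lower in 5, and respiratory chain genes higher in 39 of 74 and lower in 5, with medians of 0.33 and 0.32. Of 15 tested glycolysis genes, 5 were lower and 1 higher. Ldha, lactate dehydrogenase, was at 384, 402, 284 and 386 CPM against 529, 538, 570 and 598 CPM (log2 -0.68 ± 0.11, FDR 5.45e-06), and Tpi1, triosephosphate isomerase, was the one called higher, at 234, 154, 150 and 119 CPM against 72.7, 66.0, 71.9 and 51.0 CPM (log2 1.25 ± 0.15, FDR 5.32e-09).

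Markers of other cell types were counted in the cycling cells. Cd34 was at 0 in the cycling cells of the 3 libraries that listed it and Flt3 at 0 in all 4. The progenitor list summed to 9.61, 10.2, 0 and 18.4 CPM against 18.9, 9.02, 3.30 and 0 CPM in the other granule-gene cells. The monocyte and macrophage list summed to 19.2, 42.1, 23.7 and 91.9 CPM against 27.5, 42.5, 10.4 and 0 CPM, and the basophil and mast cell list to 1.60, 6.80 and 0 CPM against 3.14, 126 and 0 CPM in both marrow libraries and spleen of run 2. The eosinophil list stood at 71.0 to 84.3 CPM against 36.5 to 79.0 CPM in the others, the megakaryocyte and platelet list at 0 to 9.51 CPM, and the dendritic cell list, which holds the widely expressed Cst3, at 394 to 459 CPM against 395 to 452 CPM. The erythroid list stood at 319, 134, 111 and 45.9 CPM against 434, 199, 75.8 and 72.9 CPM. The B-cell list reached 395 CPM in spleen of run 2, against 656 CPM in its other granule-gene cells. Cycling cells elsewhere held 7.89 to 79.5 CPM of it. The T and NK cell list stood at 4.80, 6.80, 31.6 and 64.3 CPM against 35.0, 35.3, 56.0 and 65.6 CPM. The 1 tested gene of each of these 2 lists, Cd74 (log2 -1.51) and Cd3d (log2 -2.37), was called lower. So were Hba-a1, Hba-a2 and Hbb-bs among 4 tested erythroid genes, beside 21.5% of all genes tested. The part of those transcripts in the results was not tested.

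Within the cycling cells, those of each library were split into 3 parts by the share of S phase UMIs among S and G2 and M phase UMIs. The split was chosen after the values were seen and uses the listed genes, so it is a description. From the lowest to the highest part, Rrm2 went from 28.9 to 716 CPM in marrow of run 1, from 30.7 to 555 in marrow of run 2, from 145 to 709 in spleen of run 1 and from 23.3 to 551 in spleen of run 2. Cdc20 went from 371 to 80.1, from 590 to 149, from 456 to 184 and from 419 to 91.9 CPM. Both genes belong to the lists that made the split. S100a8, a cytosolic protein of all later neutrophils, went from 249019 to 209061 and from 234391 to 201489 CPM in marrow and from 251952 to 199228 CPM in spleen of run 1, but from 215242 to 223730 CPM in spleen of run 2, where the parts hold 6, 5 and 5 cells.

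The same cells were split by the share of Fcnb and Ms4a3 UMIs, which marks the less mature end. From the lowest to the highest part, Mmp9 went from 507 to 104, from 334 to 80.9, from 353 to 250 and from 260 to 28.6 CPM. Serpinb1a, an inhibitor of granule proteases, went from 518 to 1149, from 742 to 1036 and from 599 to 1143 CPM in both marrow libraries and spleen of run 2, and from 747 to 575 CPM in spleen of run 1. Ngp went from 56761 to 82473, from 55135 to 75217, from 67335 to 75109 and from 46315 to 70406 CPM. The middle part did not lie between the others for Mmp9 in spleen, at 156 CPM in run 1 and 338 CPM in run 2, nor for Ngp (58773 CPM) and Serpinb1a (441 CPM) in spleen of run 1, where the parts hold 5 or 6 cells. Bins by granule share were not used, since 10 of the 284 cells lay below a share of 10%.

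**Figure D4:**
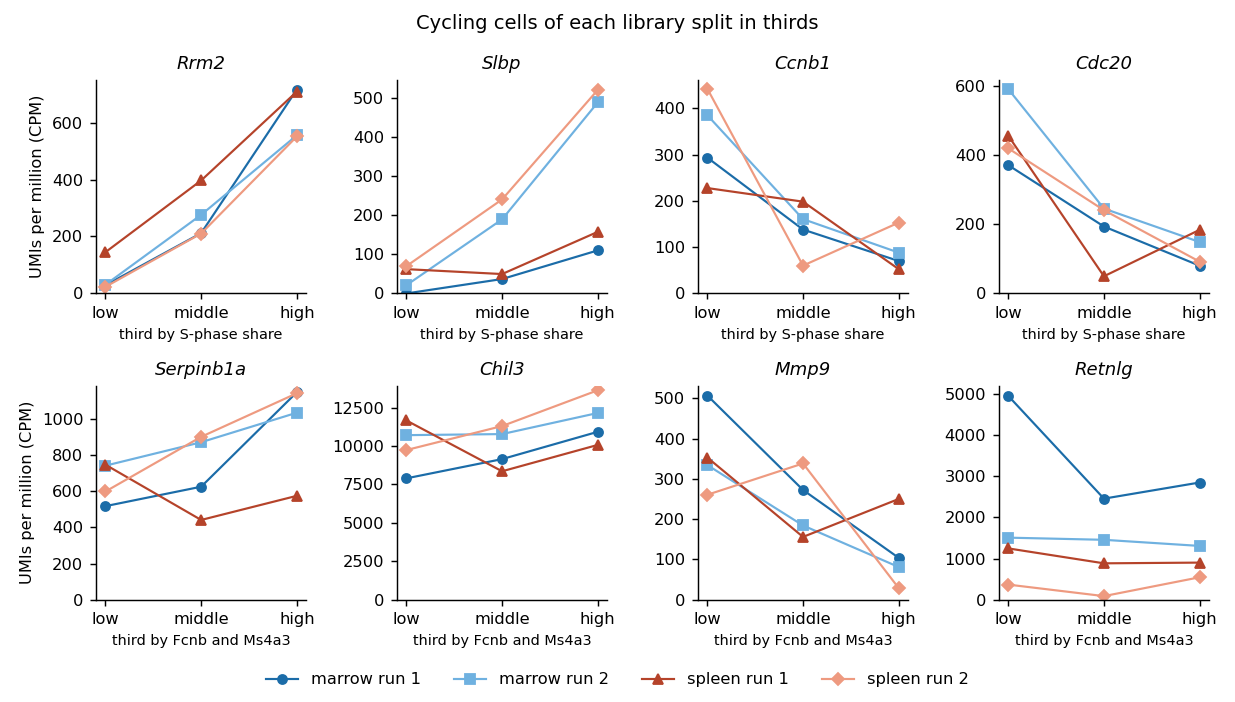
CPM (y axes, from 0) of 8 genes in the lowest, middle and highest part of the cycling cells of each library, ordered by the S phase share (upper row) and by Fcnb and Ms4a3 (lower row). Rrm2 and Slbp are higher and Ccnb1 and Cdc20 lower in the highest than in the lowest part of each library along the upper order, with the middle part not always between, and Mmp9 is lower in the highest than in the lowest part of each library along the lower order; parts of spleen hold 5 or 6 cells.

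Cycling cells of spleen and marrow were compared with the run as a block. Of 2943 genes tested, 6 were called (0.204%), Retnlg, Mmp8, Ms4a3 and S100a6 lower in spleen (0.136%) and Hist1h2al and Lrrc58 higher (0.0680%). The spleen sums rest on 18 and 16 cells, and this fit to the sums of 4 libraries also leaves only 1 residual degree of freedom. No gene of the S phase, G2 and M phase, regulator, secondary granule, mature or transcription factor lists was called. Cebpe was 0.922 (95% interval 0.761 to 1.11) and 0.947 (0.789 to 1.13) times its marrow level in spleen of runs 1 and 2, Chil3 1.07 (1.01 to 1.14) and 1.02 (0.963 to 1.08) times, and Mmp9 0.941 (0.628 to 1.37) and 1.11 (0.692 to 1.70) times, with intervals for counting error only.

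Retnlg fell from 3351 to 1026 CPM in run 1, a ratio of 0.306 (0.255 to 0.366), and from 1416 to 331 CPM in run 2, a ratio of 0.234 (0.163 to 0.325; log2 -1.81 ± 0.14, FDR 2.82e-13). Lymphoid cells of the same libraries, which should lack Retnlg, held 792 and 1235 CPM in marrow and 679 and 219 CPM in spleen (6, 150, 12 and 1352 cells). In run 1 the exact Poisson intervals of the lymphoid levels overlapped between the tissues (576 to 1064 CPM and 409 to 1060 CPM), and in run 2 they did not (1118 to 1359 CPM and 201 to 239 CPM). The median cycling cell held 1190, 1046, 829 and 242 CPM. The lymphoid cells had median depths of 5753, 1719.5, 2338.5 and 1447 UMIs, and CPM of free RNA in cells of different depth cannot be set equal. In marrow, 7 of 67 cells held 54.1% and 19 of 183 held 41.0% of the Retnlg UMIs of the cycling cells. The part of free RNA in the difference between tissues was not tested.

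Mmp8 stood at 264 and 112 CPM in marrow and 63.2 and 9.19 CPM in spleen, which rests on 8 UMIs and 1 UMI (log2 -2.32 ± 0.38, FDR 1.24e-04), with 0, 44.7, 35.7 and 7.12 CPM in lymphoid cells. In marrow 7 of 67 cells held 52.7% and 19 of 183 held 70.9% of the Mmp8 UMIs of the cycling cells, and the median cycling cell held 59.5, 0, 0 and 0 CPM. S100a6 was 0.455 (0.338 to 0.602) and 0.406 (0.249 to 0.625) times its marrow level (log2 -1.17 ± 0.17, FDR 2.25e-05), with 144, 140, 250 and 115 CPM in lymphoid cells, and the same numbers of marrow cells held 41.7% and 39.9% of its UMIs. Ms4a3 rests on 3 spleen UMIs in each run, at ratios of 0.187 (0.0378 to 0.568) and 0.267 (0.0544 to 0.795; log2 -2.16 ± 0.47, FDR 0.0145), and lymphoid cells held 0, 2.98, 0 and 0 CPM of it. Fcnb, of the same stage, had ratios of 0.658 (0.475 to 0.894) and 0.875 (0.630 to 1.19) and was not called (FDR 0.812). Hist1h2al and Lrrc58 were higher in spleen of run 1 alone, Hist1h2al at 475 against 1153 CPM in run 1 and 2.72 against 0 CPM in run 2, and Lrrc58 at 285 against 758 CPM and 48.2 against 45.9 CPM. By DESeq2, and with the limit on genes per cell, Retnlg alone was called. Without the run as a block edgeR called 0 genes (86 at an unadjusted p under 0.05), and without any 1 of the 4 libraries, where the run block had to be dropped as well and 1 residual degree of freedom is left, it also called 0 (7 to 229 at an unadjusted p under 0.05).

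**Figure D5:**
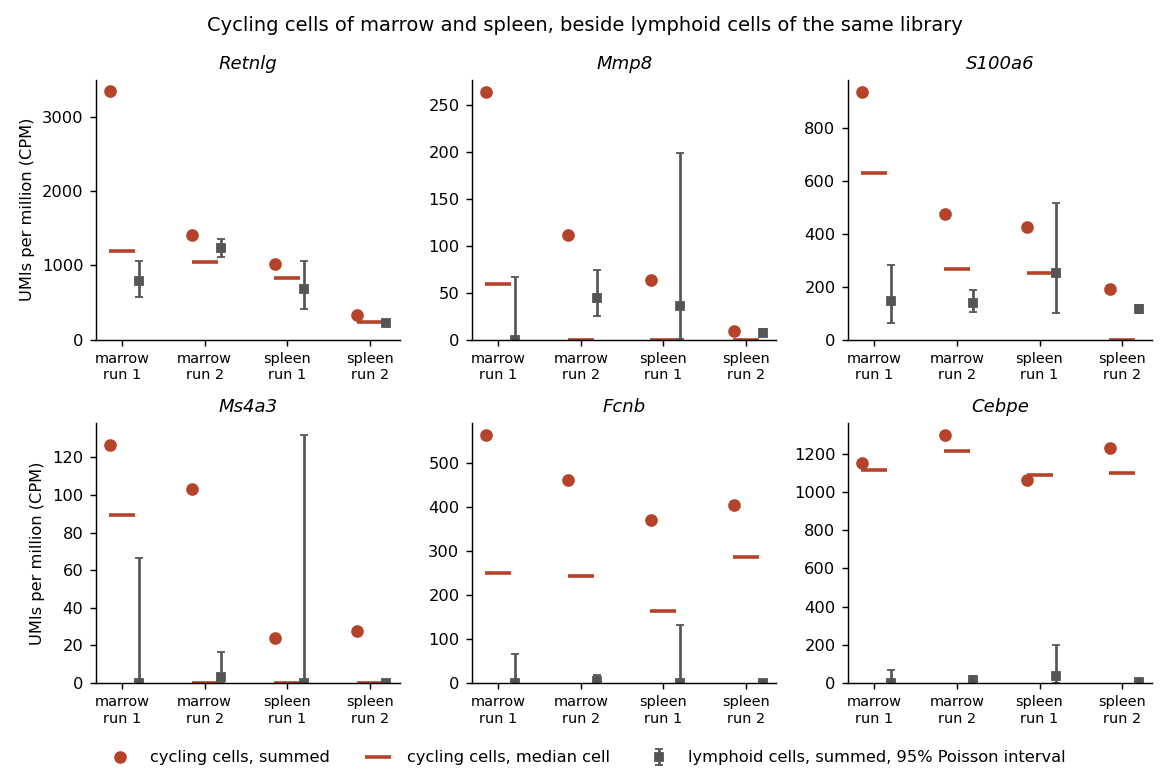
CPM (y axes, from 0) of 6 genes in the cycling cells of each library as a sum (red circles) and for the median cell (red bars), and in lymphoid cells of the same library (grey squares with exact Poisson intervals). The Retnlg median is 1190, 1046, 829 and 242 CPM beside lymphoid levels of 792, 1235, 679 and 219 CPM, while Cebpe stands at 1066 to 1299 CPM in cycling cells and at 0 to 35.7 CPM in lymphoid cells.

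Whether the step from the other granule-gene cells to the cycling cells differed between the tissues was tested as an interaction over 5600 genes, and 16 were called (0.286%), 14 with a larger rise in spleen (0.250%) and Retnlg and Mmp8 with a larger fall (0.0357%). Of the 14, 12 are in the S phase, G2 and M phase, chromatin or nucleotide synthesis lists. Tuba1b stood at 1001, 962, 1121 and 1011 CPM in cycling cells but at 71.5 and 33.8 CPM in the other cells of marrow and 6.04 and 21.9 CPM in those of spleen, so that its tissues lay apart in the comparison cells. For Tk1, thymidine kinase, and for Ccnb1, Ccna2 and Spc25, the other cells of spleen held 0 UMIs in both runs, so that their fitted difference is no bound. Cks1b stood at 0.549 and 0 CPM there and Spc24 at 1.10 and 0 CPM, and their fitted differences rest on few UMIs too. When other granule-gene cells with 3 or more lymphoid UMIs were left out, only Mmp8 and Retnlg were called, and DESeq2 called 0 genes (87 at an unadjusted p under 0.05).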

How the data were processed

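The deposited values are UMI counts for each gene and cell, which the authors made with Cell Ranger on mm10 before their cell type assignment and filters. The software version differed between runs. The study and the sample labels differ on reagent version and instrument. Run 1 files list only genes with at least 11 UMIs in the library, so the fits use genes listed in all 4 libraries (7174 genes). The marrow libraries held 4706927 and 10106307 UMIs and the spleen libraries 2876428 and 6110253 (runs 1 and 2), and the cycling cells 624640, 1471513, 126678 and 108844. Cells were neither corrected for free RNA nor screened for doublets.

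Counts were summed per library and class. Cells were not taken as replicates. Sums were tested with edgeR 4.0.16 in R 4.3.3 (quasi-likelihood test, TMM factors, filterByExpr, Benjamini-Hochberg FDR 0.05) with the library as a block for cycling against other granule-gene cells and for the interaction with tissue, and with the run as a block for spleen against marrow. DESeq2 1.42.0 was an alternative. The tissues of a run share their mice by the study's methods, and marrow and spleen of a run deviated together from their tissue means (Pearson r 0.597 across 2954 genes, which are not independent replicates). The steps were tested on simulated data. Depth was compared by exact sign flips over libraries. Named genes were the genes of the lists, the 14 genes of the rule, and for each fit the 10 called genes with the largest fold change in each direction at 100 CPM or more. Not every gene of that rule is printed, and 1 gene of the primary granule list is not reported here. The members, lists and tests were chosen with earlier results of these data known. Promoters came from RefSeq (GRCm38.p6). Alternatives were other filters, thresholds, denominators and comparison cells, no replicate block, and leaving out each library.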

Additional observations from a re-analysis of the deposited data

Results flagged for a closer look

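The step from the other granule-gene cells to the cycling cells differed between spleen and marrow by an interaction test (edgeR FDR under 0.05) in 16 genes. As log2 spleen step minus marrow step, the values were 2.76 for Tuba1b, 2.84 for 2810417H13Rik, 2.07 for Tubb5, 2.73 for Ube2c, 4.79 for Cks1b, 4.13 for Spc24, 1.85 for Hist1h2al, 1.60 for Ptma, 3.00 for Rrm2, 2.83 for Cdca8, -1.81 for Retnlg and -2.10 for Mmp8. For Tk1 (7.28), Spc25 (6.59), Ccnb1 (6.45) and Ccna2 (6.32) the other granule-gene cells of spleen held 0 UMIs in both runs, and these fitted values are no bounds. Those cells held 0.549 and 0 CPM of Cks1b, 1.10 and 0 CPM of Spc24, 1.65 and 0 CPM of Cdca8 and 2.75 and 0 CPM of Rrm2, so that these values rest on few UMIs as well. Without comparison cells that carry 3 or more lymphoid UMIs, 2 genes, Mmp8 and Retnlg, were called, and the cause was not tested. Hist1h2al was nearly absent from run 2.

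Blood was not among the libraries compared, and 0.441% of its cells in run 1 (7 of 1588) and 0.0645% in run 2 (3 of 4653) met the rule. A count of 0 would allow up to 0.189% and 0.0645%, a limit that any count above 3 passes, and no test was made. Of late neutrophils of that library, 0 of 1218 held at least 3 cycle UMIs, which allows a share of up to 0.246%.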

How the results depend on the processing

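For cycling against other granule-gene cells, 2295 genes were called, 1517 by DESeq2, 860 against comparison cells of similar depth with under 3 lymphoid UMIs and 0 against those of similar depth, which include the marrow cells left out by the lymphoid clause. Leaving out each library gave 1074 to 2492, the lowest without marrow of run 2. Without the replicate block 1553 genes were called, 1552 of them among the 2295. For spleen against marrow, 6 genes were called with the run as a block, 0 with no replicate block, 1 by DESeq2, 1 with the limit on genes per cell, 10 without the lymphoid clause, and 0 to 0 when each library was left out, in fits that also had to drop the run block. For the interaction, 16 were called, 0 with no replicate block (186 at an unadjusted p under 0.05), 0 by DESeq2, 1 with the gene limit, 253 against comparison cells of similar depth, 2 against comparison cells with under 3 lymphoid UMIs, 1 with both limits, 4 without the lymphoid clause and 3 to 22 when each library was left out. The cause of these differences was not tested. The low-count filters, the cycle thresholds, genes not listed taken as 0, the mitochondrial filter and shared barcodes kept each count within 1.5 times. The alternatives with unlisted genes at 0, without the lymphoid clause, and with similar depth and under 3 lymphoid UMIs together were chosen after seeing the data.

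The mean share of cycling cells was 5.03% in marrow and 0.922% in spleen. In marrow it was 3.75% with the gene limit, 5.46% without the lymphoid clause, 11.8% of granule-gene cells, 5.46% of S100a8 and S100a9 cells, and 4.79% to 5.27% when each library was left out. In spleen it was 1.72% after thinning, 14.8% of granule-gene cells, and 0.368% to 1.48% when each library was left out. The median UMI ratio of cycling to other cells was 2.21 to 2.51, and the difference in genes at 1000 UMIs 45.5 to 51.3, when each library was left out.

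Of 1628 repeats of 93 results on named genes, 1368 kept direction and call, 243 kept direction and lost the call, 3 gained a call and 14 changed sign. Against cells of similar depth, log2 was -0.29 for Fcnb, -0.98 for Ms4a3, -0.62 for Npm1, -0.21 for Sdf2l1 and 0.036 for S100a8. Against those with under 3 lymphoid UMIs it was -0.061 for Orm1. The interaction there was -4.18 for Rrm2, -0.18 for Ccnb1, -0.16 for Spc25, -0.28 for Cdca8 and -0.016 for Hist1h2al. When each library was left out, which for spleen against marrow leaves no run block and compares levels across runs, spleen against marrow was -10.4 to 7.62 for Hist1h2al and -1.87 to 3.05 for Lrrc58, and the interaction -2.41 to 3.55 for Hist1h2al, each lowest without spleen of run 1 and highest without marrow of run 1. The values with a changed sign were not called. With 18 and 16 spleen cells, many differences between tissues may have gone without a call.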
